A study of Rattus norvegicus with 12 samples.

Results

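The comparison described here is that of OC1 cells given siRNA 1423 with OC1 cells given a negative control siRNA, over every gene that passed a filter on low counts. Its members were chosen by the siRNA code in the library titles, which gave 4 libraries of siRNA 1423 and 4 control libraries, or 8 of the 12 libraries of the series. The other 4 libraries come from cells given a second siRNA against the same target, siRNA 1928. They enter the low-count filter, the scaling, the shared estimate of spread, values set side by side and a direct test against siRNA 1423. The labels call OC1 a line of sensory epithelial cells of the cochlea and give the genotype as Bcl-2 knockdown for both siRNAs and wild type for the control. All cells were grown in DMEM with serum, transfected in 6-well plates with a lipid reagent and collected with trypsin. A treatment tag in the labels names a plasmid in all 3 groups, whereas the protocol and the descriptions name siRNA, which is followed here. Replicates carry the letters A to D. Nothing in the labels says that they were separate cultures, so p-values measure only the spread between these libraries, which may be technical.

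BCL-2 is a protein of the outer mitochondrial membrane and the endoplasmic reticulum that binds pro-apoptotic relatives such as BAX and BIM and so holds back the release of cytochrome c and the activation of caspases. It is also known to bind Beclin 1, a factor that starts autophagy, and to affect calcium release from the endoplasmic reticulum. In the cochlea, loss of sensory cells by apoptosis is one of the known routes to hearing loss with age, the setting that the series addresses. An siRNA is a short duplex RNA whose guide strand, held by an Argonaute protein, directs the cleavage of an mRNA with a matching sequence.

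The table names genes by rat Ensembl ID only, and 0 of its 23978 IDs were matched to a symbol in the reference table used here. The level of Bcl2, the check of the knockdown that would come first, was therefore not analysed here. For the same reason the markers of hair cells, supporting cells and other cell types were not used to check the label of the line, and the lists of apoptosis, lipid, synapse and stress genes drawn up for this comparison were not counted. The submitters' notes name the rat and its build mRatBN7.2. HEI-OC1, a cochlear line of similar name, comes from the mouse, and whether OC1 is that line is not settled by the sources used here. Genes are described below by their abundance and by the size and direction of their change, and 4 of them by ID.

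Library totals ran from 16871581 to 22017957 expected counts with siRNA 1423 and from 17161984 to 23247593 in the control group, and an exact two-sided permutation test found no detectable difference (p = 0.514, adjusted p = 0.514, n = 4 each). Genes with 10 or more counts numbered 12410 to 12624 with siRNA 1423 and 12416 to 12765 in the control group (p = 0.229 by the same exact permutation test, adjusted p = 0.321). Between libraries of the same group, counts varied by 1.91 to 5.67 times the variance that sampling alone gives, so none was a copy of another. By this measure replicate A was closest to B and C to D in the siRNA 1423 group, and C to D in the control group. Depth differed between libraries, and its part in this order was not tested. Pearson correlations of log2 CPM ran from 0.9929 to 0.9949. They were highest for C with D in the siRNA 1423 group (0.9949) and for A with B in the control group (0.9947). In the siRNA 1423 group B was closer by correlation to C (0.9943) than to A (0.994).

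Under siRNA 1423 a broad set of transcripts shifted by small amounts. Of 12731 genes tested, 2903 (22.8%) passed an adjusted p under 0.05 in edgeR's quasi-likelihood test, 1436 higher (11.3%) and 1467 lower (11.5%). The median change of the genes called higher was 0.19 on the log2 scale, with the 10th and 90th percentiles at 0.11 and 0.36. Among those called lower the median was -0.22, and the corresponding percentiles were -0.12 and -0.51. Decreases therefore reached further than increases. At stricter limits they were also more numerous, with 392 higher and 496 lower at an adjusted p under 0.001, and 92 higher and 167 lower at an adjusted p under 1e-05. In all 888 genes under 0.001 the 4 libraries of siRNA 1423 lay wholly above or wholly below the 4 controls, a separation seen in 23.7% of all tested genes. These genes were chosen by p-values from the same libraries, which favors separation, so nothing is read from the larger share.

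**Figure D1:**
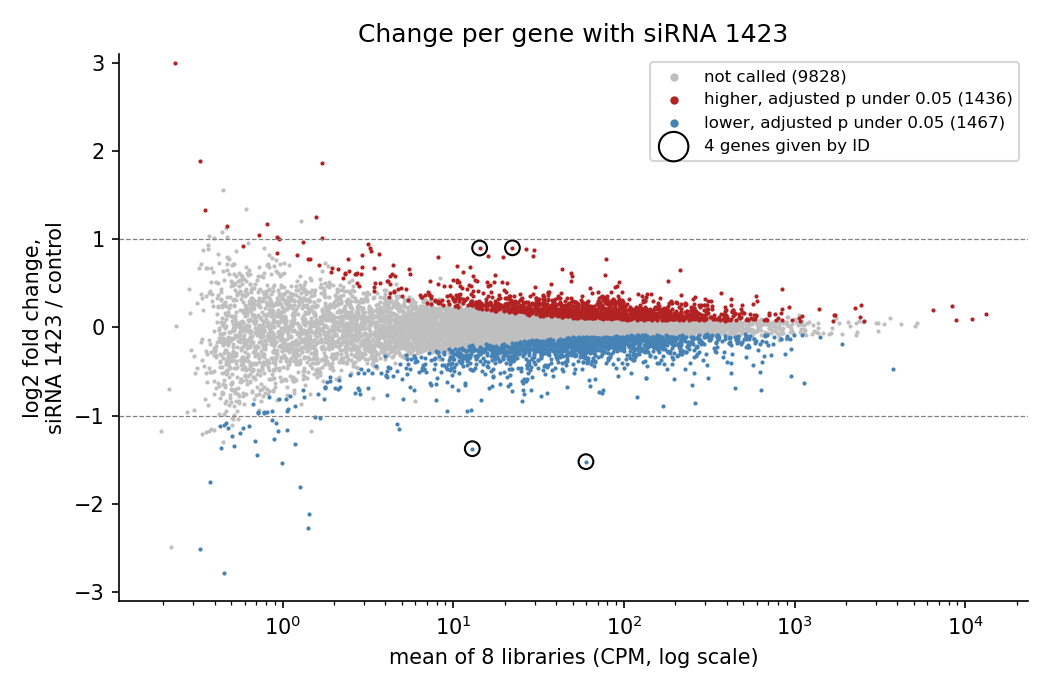
Each point is 1 tested gene, placed by its mean over the 8 libraries (CPM, log scale) and its log2 fold change with siRNA 1423 over control; red and blue points passed an adjusted p under 0.05, dashed lines mark 2-fold, and circles mark the 4 genes given by ID. The 2 circled decreases lie below the lower dashed line, and 1 scarce gene beyond the axis is drawn at 3.

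Levels are given as CPM, the counts of a gene relative to the scaled size of its library. The 2 genes that fell furthest among those averaging 5 CPM or more were ENSRNOG00000019018 and ENSRNOG00000023162. The rule for these 2 and for the 2 rises below also required a call and no overlap between the groups. The lack of overlap in these 4 genes was therefore fixed by their choice. ENSRNOG00000019018 stood at 90.03, 85.2, 91.8 and 87.9 CPM in control libraries A to D and at 31.7, 34.6, 28.5 and 29.4 CPM in those of siRNA 1423. All 4 libraries of siRNA 1423 lay far below the lowest control library. The mean went from 88.7 ± 2.86 to 31.1 ± 2.73 CPM (SD, n = 4 each), a log2 fold change of -1.52 (95% interval -1.62 to -1.42, adjusted p = 2.07e-15 by edgeR). It was the only gene of the 12731 whose change passed a test against a fold of 2, chosen after the values were seen.

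ENSRNOG00000023162 read 19.9, 17.3, 18.6 and 18.7 CPM in control libraries A to D, against 6.06, 9.61, 6.82 and 6.40 CPM with siRNA 1423. The groups did not overlap, and replicate B of siRNA 1423 was the highest of its group. The log2 fold change was -1.37 (95% interval -1.59 to -1.15, adjusted p = 3.26e-09 by edgeR). Its expected counts were fractional in all 8 libraries, as happens where a counting program divides reads among genes, so its level carries an uncertainty that was not measured.

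The largest increases under the same rule were smaller. ENSRNOG00000000763 was at 14.1, 16.2, 16.2 and 15.5 CPM in control libraries A to D and at 27.5, 27.9, 28.8 and 31.5 CPM with siRNA 1423. Every library of siRNA 1423 lay above every control library, and the means were 15.5 ± 0.965 and 28.9 ± 1.79 CPM (SD, n = 4 each). The log2 fold change was 0.90 (95% interval 0.77 to 1.04, adjusted p = 1.35e-09 by edgeR), or 1.87-fold.

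ENSRNOG00000052444 read 8.94, 8.23, 13.5 and 8.98 CPM in control libraries A to D and 17.8, 17.0, 20.7 and 19.1 CPM with siRNA 1423. Replicate C was the highest library in both groups, as it was with siRNA 1928, and in the control group it stood well above the others, yet below every library of siRNA 1423. The log2 fold change of 0.90 (95% interval 0.64 to 1.17, adjusted p = 2.15e-05 by edgeR) became 1.1 without control replicate C.

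In cells given siRNA 1928 these genes stood nearer to the control level, with the same control libraries serving both comparisons. ENSRNOG00000019018 read 82.4 to 86.5 CPM with siRNA 1928, a log2 fold change of -0.09 from control (adjusted p = 0.108 by edgeR). ENSRNOG00000023162 read 14.6 to 17.6 CPM, a log2 fold change of -0.26 (adjusted p = 0.0291) that lost its call in 5 of 17 alternatives, among them library size alone and leaving out control replicate A or D. ENSRNOG00000000763 read 18.0 to 20.3 CPM (log2 fold change 0.31, adjusted p = 0.000737) and ENSRNOG00000052444 read 9.66 to 13.9 CPM (0.14, adjusted p = 0.434). The last of these became 0.34 (adjusted p = 0.0253 by edgeR) without control replicate C. The direct difference between the siRNAs, 1928 minus 1423, was 1.43 for ENSRNOG00000019018, 1.12 for ENSRNOG00000023162, -0.60 for ENSRNOG00000000763 and -0.76 for ENSRNOG00000052444 on the log2 scale, with adjusted p-values of 6.97e-16, 1.95e-08, 7.06e-08 and 3.55e-05 by edgeR. The 4 genes were chosen for their change with siRNA 1423, which favors a difference in this direction.

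**Figure D2:**
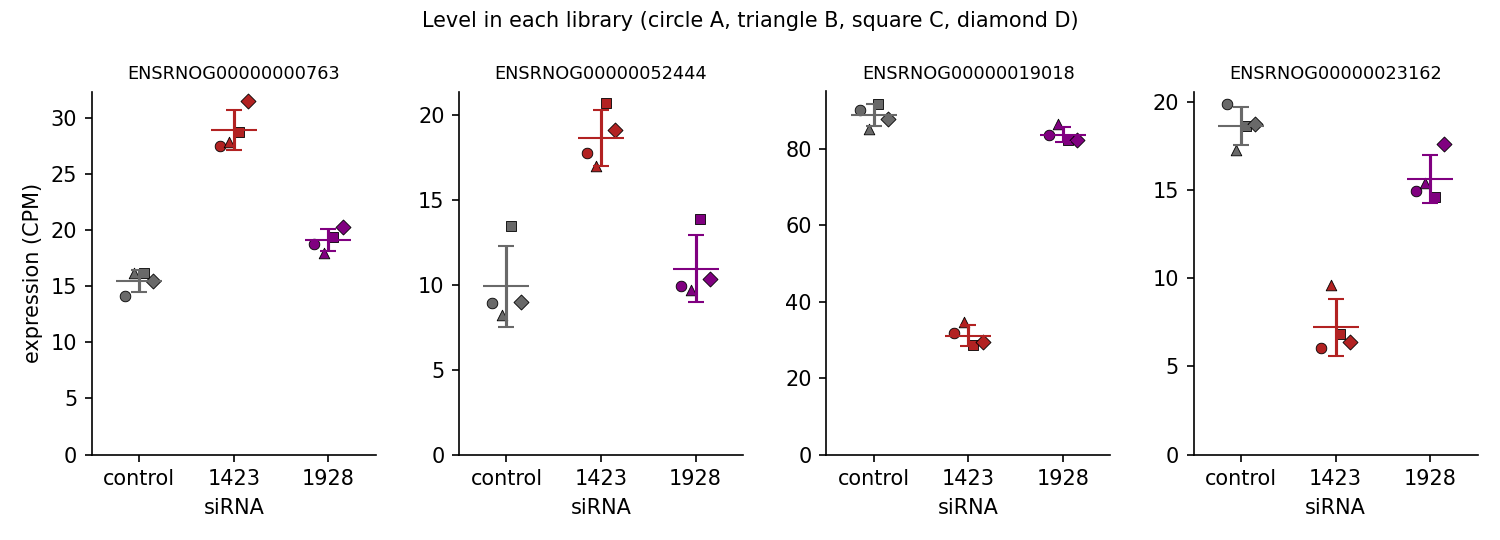
Expression in CPM of the 4 genes given by ID in each of the 12 libraries, by siRNA (control, 1423, 1928), with a marker shape for each replicate letter and the mean with its SD (n = 4) as a bar. For ENSRNOG00000019018 the libraries of siRNA 1423 lie between 28.5 and 34.6 CPM, below all 8 others.

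A call with all 4 libraries of siRNA 1423 outside the control range was seen in 1194 higher and 1225 lower genes of 12731. Among the 2436 well-expressed genes, those averaging 100 CPM or more, it was seen in 423 higher and 366 lower. The deepest fall in this class took a gene from 219 ± 7.21 to 118 ± 4.83 CPM (log2 fold change -0.89, adjusted p = 1.15e-13 by edgeR). Its control libraries ran from 208 to 224 CPM and those of siRNA 1423 from 113 to 124 CPM. The next went from 336 ± 13.7 to 186 ± 13.6 CPM (-0.86), and the third from 151 ± 5.37 to 87.4 ± 3.77 CPM (-0.78). With siRNA 1928 these 3 genes had log2 fold changes of -0.05, 0.11 and -0.08, of which only the second passed the test (adjusted p = 0.0255 by edgeR). The fourth and the fifth deepest falls, of -0.71 and -0.69 with siRNA 1423, were deeper with siRNA 1928, at -0.98 and -1.43 (adjusted p = 2.2e-16 and 1.08e-19 by edgeR). The highest rise in the class was from 165 ± 4.61 to 259 ± 4.42 CPM (log2 fold change 0.65, adjusted p = 1.08e-12), with 161 to 170 CPM in the control libraries and 253 to 263 CPM with siRNA 1423. It also rose with siRNA 1928 (0.28, adjusted p = 1.98e-07 by edgeR). A gene at 721 ± 20.9 CPM in the control group stood at 972 ± 17.6 CPM with siRNA 1423 (0.43, adjusted p = 1.15e-10) and moved the other way with siRNA 1928 (-0.18, adjusted p = 6.98e-06). SDs are over 4 libraries throughout.

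In the class of 1000 CPM or more, 16 genes were called higher and 5 lower of 66 tested. Over all tested genes, 11.3% were called higher and 11.5% lower. The most abundant gene of the table read 12094 to 13144 CPM in the control libraries and 13478 to 14376 CPM with siRNA 1423, with no overlap (log2 fold change 0.16, adjusted p = 0.00063 by edgeR), whereas it fell with siRNA 1928 (-0.22, adjusted p = 2.99e-06). The fourth most abundant went from 7655 ± 261 to 9032 ± 67.2 CPM (0.24, adjusted p = 2.56e-07) and the fifth from 6003 ± 195 to 6887 ± 174 CPM (0.20, adjusted p = 1.09e-05). Of the 10 most abundant genes, 5 were called higher and 1 lower. The second and the third, both called higher, overlapped the control range (0.09 and 0.08, adjusted p = 0.0298 and 0.0498 by edgeR). The one called lower, the ninth, fell from 4362 ± 83.9 to 3156 ± 124 CPM (-0.47, adjusted p = 4.64e-11), and lost the most CPM of all those called. With siRNA 1928 it fell as well (-0.73, adjusted p = 1.95e-15 by edgeR). Each of the 5 genes with the largest loss in CPM under siRNA 1423 had a lower log2 fold change with siRNA 1928, measured against the same controls, than with siRNA 1423. Counts held by the top 10 genes of a library made up 6.61 to 6.79% in the control group and 7.07 to 7.15% with siRNA 1423 (exact permutation p = 0.0286, the smallest that 4 against 4 libraries can give, adjusted p = 0.2 over 7 measures).

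Summed over the called genes, the shift of the transcript pool was modest. The 1436 genes called higher held 20.3% of all CPM in the control group and 22.7% with siRNA 1423, and the 1467 called lower held 16.2% and 13.9%. The 10 largest gains made up 25.4% of the summed gain, and the 10 largest losses 15.4% of the summed loss. These sums describe genes chosen by the same contrast and carry no test.

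The split of called genes by direction differed between abundance classes, and this difference was not tested. Under 1 CPM, 10 genes were called higher and 29 lower, so that 25.6% of the called genes were higher. That share was 41.0% between 1 and 10 CPM, 48.8% between 10 and 100 CPM, 53.2% between 100 and 1000 CPM and 76.2% at 1000 CPM or more. With library size alone the shares were 25.0%, 39.6%, 45.4%, 49.0% and 71.4%, in the same order. The median log2 fold change of all genes tested under 1 CPM, called or not, was -0.0933. The filter drew on all 12 libraries, so a scarce gene could enter through the groups where it was high. The part of the filter in these shares was not tested. The share of genes called at all was 4.77% under 1 CPM, where the standard error of the log2 change had a median of 0.357, and 37.1% between 100 and 1000 CPM, where it was 0.0337. At 10 CPM or more, the increases reached at most 0.90 on the log2 scale and the decreases -1.52.

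**Figure D3:**
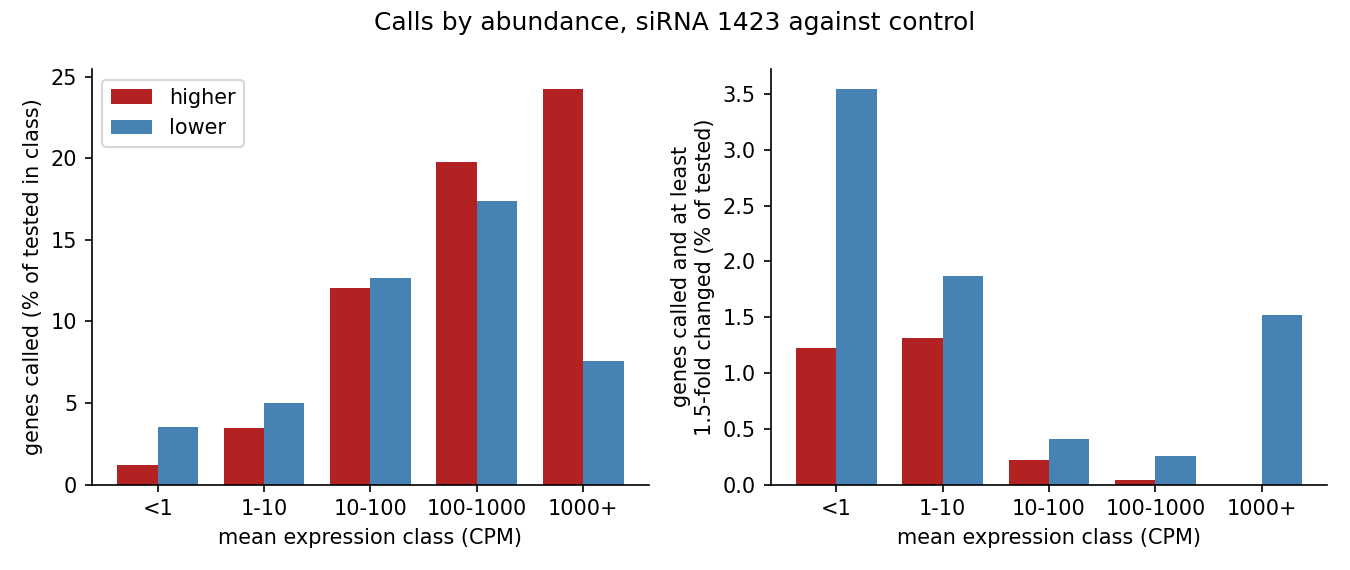
Bars show the percentage of tested genes in each class of mean expression (CPM) that were called higher (red) or lower (blue) with siRNA 1423, at any size on the left and at 1.5-fold or more on the right, where the vertical axis is finer. Calls of any size were most frequent above 100 CPM, and those of 1.5-fold or more below 10 CPM.

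Called changes of 2-fold or more were few and lay mostly in scarce transcripts. They numbered 42 (0.330% of the tested genes), with 11 higher and 31 lower, and 28 of them averaged under 1 CPM. With a median standard error of 0.357 there, only large estimates could pass, and all 39 genes called under 1 CPM reached 1.5-fold. Where the called changes of 2-fold lay is therefore partly set by the rule for calling. No rise and 2 falls of 2-fold or more were called at 5 CPM or more, both falls being the genes given by ID above. All 4 libraries of siRNA 1423 lay outside the control range in 8 of the 11 rises and 22 of the 31 falls. This held for 23.7% of all tested genes, and the 2-fold genes were chosen on the same libraries. In 4 of the 42, at least 1 of the 8 libraries was at 0, and 3 of these 4 overlapped between groups. One of them gave the largest fitted rise of all, yet it was at 0 in every control library and in replicates A and B of siRNA 1423, and at 22 and 16 counts in replicates C and D. It was also at 0 in replicates B and D of siRNA 1928 and at 17 and 21 counts in A and C, so that each siRNA had libraries at 0 and libraries above 0. No fold is given. Another, a fall, ranged from 15 to 108 counts in the control libraries, was at 0 in replicates C and D of siRNA 1423 and at 13 and 26 counts in A and B. Counts of these genes were fractional in 1 to 6 of the 8 libraries. The numbers of 2-fold rises and falls became 5 and 11 with DESeq2, and 25 and 47 without the filter on low counts, and rises numbered 7 without control replicate B.

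Tests against a minimum fold, added after the first results were seen, gave the same picture of size. Against a fold of 1.1, edgeR's glmTreat called 277 genes higher and 432 lower. Against 1.2 it called 44 and 110, against 1.5 it called 4 and 6, and against 2 it called 0 and 1. For the 0, genes called in the ordinary test with an estimate of 2-fold or more numbered 11. DESeq2, with its default filter on mean counts, gave 5 by that ordinary rule. Of the 9828 genes that were not called, 62.6% had a 95% interval that lay wholly within 1.2-fold of no change. At 10 CPM or more this held for 6012 of 6895 genes (87.2%).

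Genes at 5 CPM or more that changed at least 1.5-fold numbered 20 higher and 46 lower (1.31% of the tested genes reached 1.5-fold at any abundance). No overlap with the control libraries was seen in all 20 and in 43 of the 46, against 23.7% of all tested genes. Their median log2 fold change was 0.69 and -0.71 with siRNA 1423, and 0.29 and -0.24 with siRNA 1928, measured against the same controls. With siRNA 1928, 11 of the 20 were also called higher and 2 lower, and 24 of the 46 were also called lower and 2 higher, where 45.2% of all tested genes were called, 21.8% higher and 23.3% lower. The direct test of siRNA 1928 against siRNA 1423 called 14 of the 20 and 38 of the 46, against 44.3% of all tested genes. These sets were chosen by the change with siRNA 1423, so nothing is read from the larger shares.

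The change was also measured in separate libraries, with replicates A and B set apart from C and D. Of 12731 tested genes, replicates A and B alone called 1548, and replicates C and D alone called 2381. Both called 1151 genes, all in the same direction. The 2 estimates share no library. Over 9559 genes at 10 CPM or more, which are not independent replicates, Pearson's r between the estimates was 0.788 and Spearman's rho 0.738, and over all tested genes these were 0.40 and 0.565. Of the genes called with A and B alone, 97.5% had the same sign with C and D, where the median absolute change was 0.22 against 0.25 with A and B. In genes not called with A and B, 70.6% kept their sign, and over all tested genes 73.8% had the same sign in both. A test of whether the change differed between the pairs of letters called 0 genes by edgeR, with 541 at an unadjusted p under 0.05; no other tool was run on it. The genes given by ID, whose choice over all 8 libraries fixed their direction in each pair of letters, had log2 fold changes of -1.40 and -1.64 for ENSRNOG00000019018, -1.25 and -1.49 for ENSRNOG00000023162, 0.88 and 0.92 for ENSRNOG00000000763 and 1.01 and 0.80 for ENSRNOG00000052444, A and B first.

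**Figure D4:**
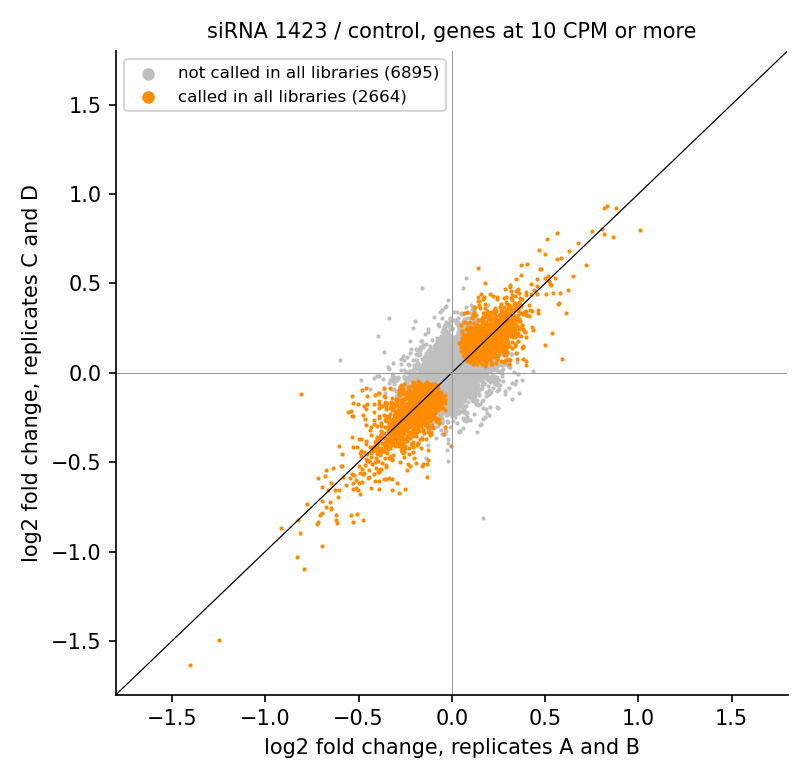
Each point is 1 gene at 10 CPM or more, with its log2 fold change of siRNA 1423 over control in replicates A and B on the horizontal axis and in C and D on the vertical axis; orange points were called in all libraries together, and the line marks equal change. The 2 points at the lower left, near -1.4 and -1.25 on the horizontal axis, are ENSRNOG00000019018 and ENSRNOG00000023162.

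How reads were divided among genes in the deposited counts is not given in the sources used here. At least 1 of the 8 libraries had a fractional count in 90.8% of the called genes and in 84.4% of all tested genes. Between 10 and 100 CPM, 24.5% of the 592 genes with whole counts in every library were called, and 21.0% of the 1231 genes with fractional counts in every library. ENSRNOG00000052444 had whole counts in all 8 libraries, whereas fractional counts occurred in 2 libraries for ENSRNOG00000019018 and in 4 for ENSRNOG00000000763. The part of read division in the results was not tested.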

How the data were processed

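Polyadenylated RNA was sequenced by a strand-specific protocol in 12 libraries, 4 per group, per the labels. The authors deposited 1 table of expected counts per gene ID, a unit inferred from its values, of which 71.3% are whole to within 1e-06. All its columns belong to these libraries. Build mRatBN7.2 and the tools bcl2fastq 2.20, fastp 0.21.0 and DESeq2 1.24.0 appear in the submitters' processing notes. Which aligner, annotation release and counting program were used, and whether counting used strand, is not given in the sources.

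Counts were rounded to whole numbers and filtered with filterByExpr (minimum count 10, minimum total 15), which kept 12731 genes with 99.95% of the counts. Of 11247 genes left out, 5685 were at 0 in all 12 libraries. TMM scaling and the quasi-likelihood F test of edgeR 4.0.16 (with limma 3.58.1 in R 4.3.3) were run on all 12 libraries with 1 mean per group, with Benjamini-Hochberg adjustment over all tested genes in each contrast. CPM are scaled by TMM. Standard errors were derived from the F statistic. DESeq2 1.42.0 and limma voom served as alternatives, beside other scalings, no filter, fewer libraries, a replicate block and each library left out. Figures were drawn with matplotlib 3.10.9. Exact permutation tests of 7 library measures were adjusted over those 7.

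On counts simulated for siRNA 1423 against control (12645 genes), edgeR recovered 95 of 100 genes changed by a log2 size of 1 and 86 of 98 changed by 0.5, with 4 calls among 12447 unchanged genes. The simulated spread followed the fitted trend with abundance, without spread particular to a gene, effects of the replicate letters or fractional counts. Far fewer genes were changed than were called in the data, where the median called changes were 0.19 and -0.22. Recovery at that size was not simulated. Intervals cover the modelled spread between libraries only.

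The rule for genes given by ID took the 2 highest and 2 lowest log2 fold changes among called genes that averaged at least 5 CPM and had no overlap between the groups, because IDs had no symbols. This rule left 1154 higher and 1173 lower genes to choose from. The genes next in order had log2 fold changes of 0.89 and -0.95. Other single genes are described without an ID, by abundance rank or among the extremes at 100 CPM or more, and their choice followed their values. The members and lists were chosen with earlier results of these data known. Replicate letters are shared by the groups, and same-lettered libraries of siRNA 1423 and control deviated from their group means with correlations of 0.16 for A, 0.088 for B, 0.14 for C and 0.13 for D. Pairing was to be accepted only if every value passed 0.1, so letters were not taken to pair the libraries, and the labels give no shared batch or culture.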

Additional observations from a re-analysis of the deposited data

Results flagged for a closer look

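All 4 genes given by ID differed between the 2 siRNAs by edgeR's test of the difference itself, which called 44.3% of all 12731 tested genes. The log2 difference, siRNA 1928 minus siRNA 1423, was -0.60 for ENSRNOG00000000763, -0.76 for ENSRNOG00000052444, 1.43 for ENSRNOG00000019018 and 1.12 for ENSRNOG00000023162. Their choice by the change with siRNA 1423 favors such differences.

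Single libraries stood far from the others of their group in 5 of the 26 groups of 4 values searched, where chance picks out about 1 in 20. Replicate C of siRNA 1423, the deepest library of its group, had 12624 genes with 10 or more counts and 15374 genes with any count, above the other 3. Control replicate D had fractional counts in 47.0% of the tested genes, the lowest of its group. ENSRNOG00000052444 was highest in replicate C of the control group (13.5 CPM) and in replicate C of siRNA 1928 (13.9 CPM).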

How the results depend on the processing

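The log2 fold change with siRNA 1423 kept its direction and its call for all 4 genes given by ID under all 18 other settings of scaling, filter, tool, model and libraries, running from -1.64 to -1.40 for ENSRNOG00000019018, -1.53 to -1.25 for ENSRNOG00000023162, 0.86 to 0.93 for ENSRNOG00000000763 and 0.80 to 1.1 for ENSRNOG00000052444. The choice of these 4 genes, by a call and no overlap between the groups, fixed their direction wherever libraries were left out and favored a kept call. The replicate block gave 3365 called genes in place of 2903, 2895 of them shared, and changed no call of the 4. With A and B against C and D as a term, 3549 genes were called, 2902 of them shared. Only replicates A and C of siRNA 1423 correlated best with the control library of their own letter. Leaving out 1 library gave 2360 to 2865 called genes, 1162 to 1374 of them higher and 1195 to 1491 lower, with 50 to 60 rises and 92 to 115 falls of 1.5-fold, and 7 (without control replicate B) to 15 rises and 25 to 36 falls of 2-fold. Library totals then differed by -2373070 to -254288 counts and detected genes by -173 to -56.3, with exact permutation p-values of 0.257 to 0.829 and 0.143 to 0.514. Replicates A and B alone gave 1548 called genes (757 higher, 791 lower) and 18 falls of 2-fold, while C and D alone, as many libraries, gave 2381 and 33; the cause was not tested. Rises and falls of 2-fold numbered 25 and 47 without the filter, where more scarce genes were tested, and 5 and 11 with DESeq2. DESeq2 kept its default filter on mean counts, which leaves genes below its limit uncalled. The cause of the lower numbers was not tested. Alternatives chosen after the data were seen gave 709, 154, 10 and 1 genes when tested against a fold of 1.1, 1.2, 1.5 and 2, 266 called genes when only whole counts were taken (13.4% of 1985 genes, with a median of 3.86 CPM), and 1703 and 888 at an adjusted p under 0.01 and 0.001. Standard errors were largest under 1 CPM, with a median of 0.357, and the part of depth in this was not tested.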
